A study of Mus musculus with 6 samples.

Results

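The 10 genes described here encode the enzymes that build triglyceride in the fat cell and the proteins that supply it with glycerol 3-phosphate: Gpam, Agpat2, Lpin1, Dgat1, Dgat2, Mogat1, Pck1, Gpd1, Aqp7 and Gk. They were chosen by name from the pathway and found by Ensembl identifier, 10 of the 54532 genes in the table, and all 10 had enough counts to be tested. RNA-Seq was performed on whole epididymal fat (a visceral depot) of male C57BL/6J mice without further treatment. The 3 ND libraries came from mice given a normal diet with 4.5% fat and the 3 HFD libraries from mice given a high-fat diet with 60% fat. The mice started either diet when 4 weeks old, ate it for 16 weeks and were 20 weeks old at the end. The labels number the libraries of each diet but do not say that each was a separate mouse, so the p-values measure the spread between these libraries, which may be technical in part. Count totals ranged from 16996896 to 18859320 per library. Levels are given in CPM (counts scaled to the size of each library after TMM normalization), and 3 counts correspond to 0.150 to 0.181 CPM, a floor that covers counting error only.

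Triglyceride is assembled on a glycerol backbone. Gpam (mitochondrial GPAT1) adds the first acyl chain to glycerol 3-phosphate, Agpat2 adds the next to give phosphatidic acid, Lpin1 removes the phosphate to give diacylglycerol, and Dgat1 and Dgat2 add the last chain. Mogat1 reaches diacylglycerol by another route, from monoacylglycerol. White fat has little glycerol kinase. It makes most of its glycerol 3-phosphate through Gpd1, from glucose or, during fasting, from pyruvate by way of Pck1. The route by way of Pck1 is called glyceroneogenesis. The glycerol freed by lipolysis leaves the cell through the channel Aqp7.

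The libraries were first checked against markers. The 15 adipocyte markers were all measured in every library, with a summed level of 50053 to 64364 CPM on ND against 26923 to 48124 CPM on HFD. By edgeR's test 5 of the 15 fell (Cfd, Retn, Slc2a4, Adrb3 and Lgals12) while 10 did not pass. The markers did not all move 1 way. Their log2 fold changes ran from -3.42 to 0.60, with 12 of the 15 negative, and DESeq2 called 7 lower and 1 higher. The 15 macrophage markers summed to 2160 to 2286 CPM on ND against 4845 to 10994 CPM on HFD, and 13 of them rose. In whole tissue, fewer fat cells and less RNA of a gene per fat cell cannot be told apart. The third ND library stood apart: its 8 epithelial markers summed to 5711 counts, against 388 to 587 in the other 5 libraries, and its 9 kidney markers to 1283 counts, against 2 to 16, while Kap and Slc12a1 of the kidney list were at 0 there. Values without this library are given where they change a call or a direction of a gene named here. The 8 epididymis markers summed to 33 counts in that library and to 1 to 13 in the others.

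Transcripts of 4 of the 10 genes were lower in the HFD libraries and none was higher. Gpam, Agpat2, Dgat1 and Mogat1 fell by edgeR's quasi-likelihood test, with p-values adjusted over the 15751 genes tested and a threshold of 0.05, and 6 genes did not pass. Of all genes tested, 6.04% fell and 9.85% rose. At an unadjusted p-value under 0.05 the count was also 4 lower and 0 higher, against 15.3% and 18.7% of all genes tested, and DESeq2's Wald test likewise called 4 lower and 0 higher, against 8.42% and 10.7% of the 18952 genes it gave an adjusted p-value. The ND and HFD values of the same 4 genes did not overlap, as was so in the lower direction for 19.1% of all genes tested, in the higher direction for 21.7% and in either for 40.9%. The log2 fold change was negative for 9 of the 10 genes, for 12 of the 15 adipocyte markers and for 7789 of the 15751 genes tested. Its median was -0.55, near the -0.52 of the adipocyte markers, against 0.01 over all genes tested. But 7 of the 10 were positive, with 1 called lower and 1 higher, when the libraries were scaled to their adipocyte markers. That scaling moved the median of all genes to 1.09. These counts depended on single libraries: 1 gene was called without the first or without the second ND library, 2 without the third ND library, 0 without the first HFD library, 4 without the second and 3 without the third, where Aqp7 was also called higher. The share of all genes called lower moved with them, at 0.956%, 1.32% and 2.46% without the first, the second and the third ND library and 0.58%, 9.65% and 4.58% without the HFD libraries in turn. Without the third library of both diets, a choice made after seeing the data, 4 genes fell, as did 4.97% of all genes.

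**Figure D1:**
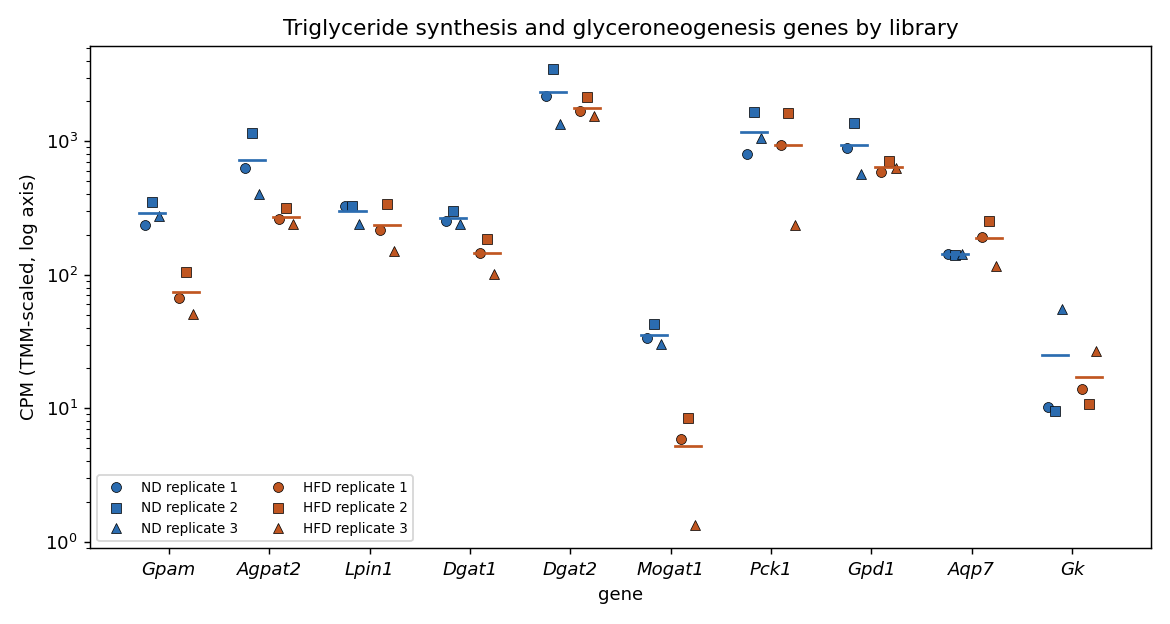
Level of each of the 10 genes in each library, in CPM on a log axis, with ND and HFD libraries side by side and the mean of each diet as a line. Gpam, Agpat2, Dgat1 and Mogat1 have HFD points below every ND point, and the points of the other 6 genes overlap between the diets.

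The first acyltransferase was the steepest of the main chain. Gpam (ENSMUSG00000024978, chr19:55067268-55127238 of GRCm38, minus strand) had 237, 354 and 277 CPM in the ND libraries and 66.7, 105 and 50.5 CPM in the HFD libraries. Every HFD value lay well under the lowest ND value. On average Gpam fell to 74.0 ± 27.9 CPM (SD, n = 3) from 289 ± 59.5 CPM (SD, n = 3), which is a 3.91-fold difference and a log2 fold change of -1.97 with an SE of 0.29 (edgeR adjusted p = 0.00990). Only 1.61% of the genes tested had a lower log2 fold change. The call was lost without the first HFD library (edgeR adjusted p = 0.0545) and was made with any other single library left out.

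Agpat2 (ENSMUSG00000026922, chr2:26593057-26604417, minus strand), whose loss causes lipodystrophy in mice and people, had 628, 1157 and 405 CPM on ND against 260, 318 and 241 CPM on HFD. The diets did not overlap, although the ND libraries themselves spread 2.86-fold. On average Agpat2 fell to 273 ± 40.1 CPM (SD, n = 3) from 730 ± 386 CPM (SD, n = 3), for a log2 fold change of -1.42 and an SE of 0.37 (edgeR adjusted p = 0.0440). The call was lost without the first ND, the second ND, the first HFD or the third HFD library, with edgeR adjusted p-values of 0.1002, 0.0864, 0.144 and 0.107, and without the second ND library the log2 fold change was -0.92. The exons of Agpat2 overlap Egfl7, an endothelial gene on the opposite strand with 917 to 2321 counts per library. The sources used here do not say whether strand was used in counting, and without it, reads from the shared exons cannot be told apart.

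Lpin1 (ENSMUSG00000020593, chr12:16535669-16610966, minus strand), a phosphatidate phosphatase, had 327, 330 and 238 CPM on ND against 217, 337 and 150 CPM on HFD. Its second HFD library was the highest of all 6 and the diets overlapped. The log2 fold change was -0.35 with an SE of 0.30 (edgeR adjusted p = 0.455).

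Of the enzymes of the last step, Dgat1 passed the test and Dgat2 did not. Dgat1 (ENSMUSG00000022555, chr15:76502015-76511953, minus strand) had 252, 301 and 240 CPM on ND against 146, 185 and 102 CPM on HFD, with no overlap. On average Dgat1 fell to 144 ± 41.7 CPM (SD, n = 3) from 264 ± 32.4 CPM (SD, n = 3), for a log2 fold change of -0.87 with an SE of 0.23 (edgeR adjusted p = 0.0435). The call was lost without any 1 of the ND libraries (edgeR adjusted p = 0.115, 0.128 and 0.0818 for the first, the second and the third) and without the first HFD library (edgeR adjusted p = 0.138). Dgat2 (ENSMUSG00000030747, chr7:99153658-99182719, minus strand) had 2201, 3496 and 1337 CPM on ND against 1676, 2156 and 1541 CPM on HFD. The third ND library was the lowest of the 6 and the second the highest, so the HFD values lay inside the ND range. The log2 fold change of Dgat2 was -0.39 with an SE of 0.36 (edgeR adjusted p = 0.484), and it was 0.02 without the second ND library. Per length, in FPKM, Dgat2 stood above Dgat1 by 8.65-, 11.5- and 5.53-fold on ND and by 11.4-, 11.5- and 15.0-fold on HFD. These ratios overlapped between the diets (exact permutation test, two-sided, p = 0.2, adjusted p = 0.383 over 23 ratios).

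Mogat1 (ENSMUSG00000012187, chr1:78510991-78538173, plus strand) showed the largest fold difference of the 10 genes. It had 33.7, 42.7 and 30.2 CPM on ND against 5.90, 8.49 and 1.32 CPM on HFD, or 605 to 736 counts against 23 to 141. The diets were far apart, and the lowest HFD library lay 6.41-fold under the highest. On average Mogat1 fell to 5.24 ± 3.63 CPM (SD, n = 3) from 35.5 ± 6.43 CPM (SD, n = 3), which is a 6.78-fold difference and a log2 fold change of -2.76 with an SE of 0.54 (edgeR adjusted p = 0.0194), and 0.597% of the genes tested had a lower one. The call was lost without the first, the second or the third ND library (edgeR adjusted p = 0.0644, 0.0731 and 0.0513) and without the first HFD library (0.0829), while the log2 fold change stayed between -3.28 and -2.32. Its exons overlap BC035947 on the opposite strand, with 83 to 153 counts on ND and 4 to 40 on HFD.

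The windows around the starts of these genes are shown for the 3 called genes with an entry, and for Pck1 because the promoter of this gene is a textbook case of hormone control. RefSeq windows of GRCm38.p6 from 250 bases before to 50 bases after the start were found for 7 of the 10 genes, with 9 windows in all; Dgat1, Dgat2 and Gpd1 had no entry. Letters were searched on both strands: AGGTCA (a nuclear receptor half-site), CACGTG (an E-box), CCAAT (the letters bound by NF-Y), TATAAA (the TATA box), GGGCGG (a GC box), TTNNGCAA (letters bound by C/EBP factors), TTACGTCA (the cAMP response element letters) and the DR1 element bound by PPARG (AGGTCA repeated after any single base, so that each match also holds AGGTCA). Capitals mark every match, read 5′ to 3′ along the gene, and a match on the other strand appears as its reverse complement.

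Gpam, first start, chr19:55127189-55127488, minus strand: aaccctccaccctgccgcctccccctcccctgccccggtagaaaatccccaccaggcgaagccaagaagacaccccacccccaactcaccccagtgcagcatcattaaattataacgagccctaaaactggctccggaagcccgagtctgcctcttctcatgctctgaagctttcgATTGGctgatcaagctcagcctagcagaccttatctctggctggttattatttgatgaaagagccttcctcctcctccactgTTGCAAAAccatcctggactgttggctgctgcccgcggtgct
Gpam, second start, chr19:55099428-55099727, minus strand: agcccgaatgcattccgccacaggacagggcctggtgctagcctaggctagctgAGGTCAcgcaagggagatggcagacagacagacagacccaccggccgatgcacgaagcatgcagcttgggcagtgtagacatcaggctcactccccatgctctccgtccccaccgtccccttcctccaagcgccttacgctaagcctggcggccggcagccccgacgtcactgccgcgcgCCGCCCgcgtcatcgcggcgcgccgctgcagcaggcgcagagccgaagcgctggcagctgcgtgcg
Agpat2, chr2:26604368-26604667, minus strand: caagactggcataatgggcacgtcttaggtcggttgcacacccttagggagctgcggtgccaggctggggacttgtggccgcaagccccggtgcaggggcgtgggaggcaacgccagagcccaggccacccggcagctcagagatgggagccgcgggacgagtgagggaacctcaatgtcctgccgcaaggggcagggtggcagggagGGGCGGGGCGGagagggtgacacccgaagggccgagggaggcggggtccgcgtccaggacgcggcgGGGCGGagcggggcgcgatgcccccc
Mogat1, chr1:78510810-78511109, plus strand: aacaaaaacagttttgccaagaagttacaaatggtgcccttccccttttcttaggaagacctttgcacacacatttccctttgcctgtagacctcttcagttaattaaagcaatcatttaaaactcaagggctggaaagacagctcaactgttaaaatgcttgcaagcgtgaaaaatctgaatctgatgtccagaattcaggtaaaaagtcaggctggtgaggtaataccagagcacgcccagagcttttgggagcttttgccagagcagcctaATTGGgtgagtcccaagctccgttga
Pck1, chr2:173152823-173153122, plus strand: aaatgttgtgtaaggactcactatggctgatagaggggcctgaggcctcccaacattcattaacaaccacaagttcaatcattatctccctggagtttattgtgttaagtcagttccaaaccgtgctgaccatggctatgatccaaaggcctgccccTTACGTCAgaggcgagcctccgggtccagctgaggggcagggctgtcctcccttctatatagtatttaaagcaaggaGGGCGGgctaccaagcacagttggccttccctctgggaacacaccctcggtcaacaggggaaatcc

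The first Gpam window held a reversed CCAAT, which 37.4% of all 32851 windows held on either strand, and the C/EBP letters, which 10.8% held. The second held AGGTCA (16.3% of all windows) and a reversed GC box (35.7%). Agpat2 held 3 GC boxes, a pair of them sharing bases, and Mogat1 held a reversed CCAAT behind its start. Pck1 held the cAMP response element letters 93 bases before its start, which 0.499% of all windows held, and a GC box. The letters TTACGTCA were added after the windows were read, so this share is not read as a trait of Pck1. The DR1 element was in none of the 9 windows and in 13 of all windows. Of the other windows, Lpin1 and both of Aqp7 held AGGTCA, and Gk held CACGTG, as 7.15% of all windows did, and 3 GC boxes. TATAAA, in 13.6% of all windows, was in none of the 9, and other forms of the TATA box were not searched. These are letters only and were not tested as binding sites.

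The genes that supply glycerol 3-phosphate did not pass the test. Pck1 (ENSMUSG00000027513, chr2:173153048-173159273, plus strand), the cytosolic phosphoenolpyruvate carboxykinase, had 804, 1652 and 1059 CPM on ND against 943, 1627 and 237 CPM on HFD. The second HFD library matched the highest ND library closely, and the third HFD library lay far below all others, a 6.87-fold range within HFD. The log2 fold change was -0.33 with an SE of 0.62 (edgeR adjusted p = 0.751), and it turned to 0.12 without the third HFD library and to 0.0077 without the second ND library. Gpd1 (ENSMUSG00000023019, chr15:99717515-99725005, plus strand), the cytosolic glycerol-3-phosphate dehydrogenase, had 887, 1381 and 566 CPM on ND against 585, 713 and 633 CPM on HFD. The third ND library was the lowest of all 6, and the HFD libraries spanned only 1.22-fold. The log2 fold change of Gpd1 was -0.55 with an SE of 0.32 (edgeR adjusted p = 0.265), and -0.85 without the third ND library.

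For glycerol itself, Aqp7 was the steadiest gene on ND and Gk the most uneven. Aqp7 (ENSMUSG00000028427, chr4:41033074-41048139, minus strand) had 144, 141 and 143 CPM on ND against 193, 253 and 117 CPM on HFD. The ND libraries differed by 1.02-fold, and the HFD values lay on both sides of them. Its log2 fold change, the only positive one of the 10, was 0.39 with an SE of 0.26 (edgeR adjusted p = 0.328), and 0.63 without the third HFD library (edgeR adjusted p = 0.0329). Gk (ENSMUSG00000025059, chrX:85701937-85776819, minus strand), the glycerol kinase, had 10.3, 9.45 and 55.2 CPM on ND against 14.0, 10.8 and 26.7 CPM on HFD. The third ND library, the one with the epithelial and kidney marker counts, was far above the rest with 1105 counts, against 163 and 190 in the other ND libraries. The log2 fold change of Gk was -0.54 with an SE of 0.71 (edgeR adjusted p = 0.629) with that library and 0.76 without it (edgeR adjusted p = 0.249). Their part in the Gk level was not tested.

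**Figure D2:**
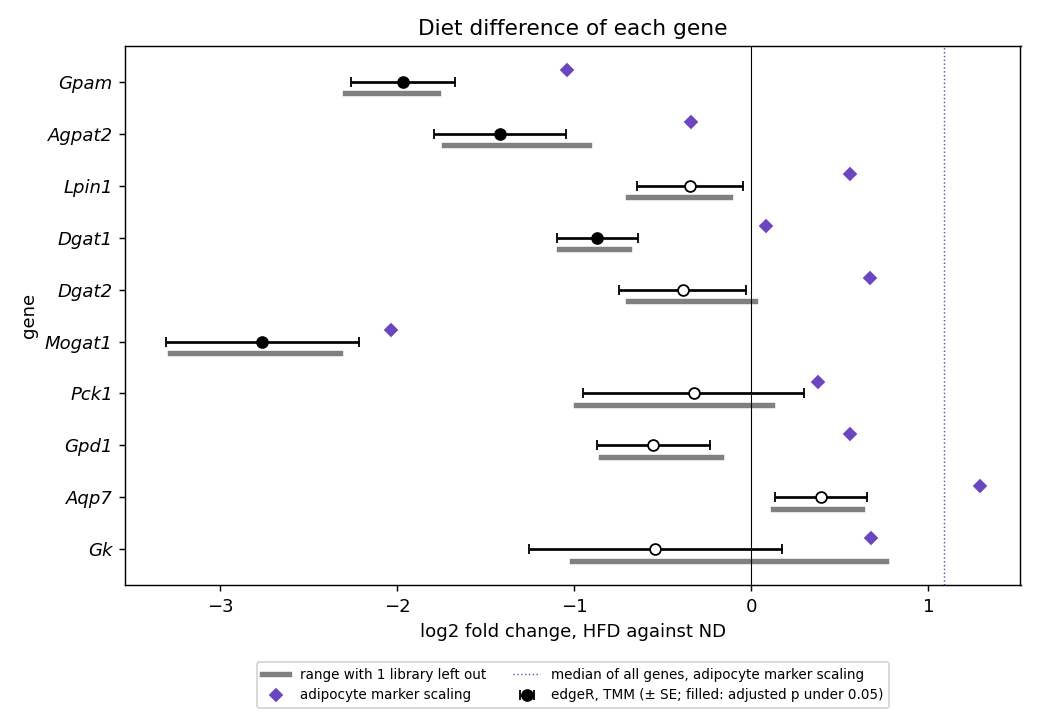
Log2 fold change of HFD against ND for each gene, with circles for edgeR's estimate ± SE (filled where the adjusted p-value is under 0.05), grey bars for the range with 1 library left out, and diamonds for the estimate after scaling each library to its adipocyte markers. Mogat1, Gpam, Agpat2 and Dgat1 lie lowest at -2.76, -1.97, -1.42 and -0.87, and the diamonds are shifted to the right together with the median of all genes, the dotted line at 1.09.

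Per length, the order of the genes was led by the last acyltransferase in both diets. On ND the mean FPKM was 773 for Dgat2, 348 for Agpat2, 347 for Pck1 and 324 for Gpd1, and the libraries of these 4 genes overlapped with their neighbours in the order. Then came Dgat1 at 87.8 and Gpam at 76.6, which overlapped, Aqp7 at 51.2, Lpin1 at 31.4 and Mogat1 at 23.2, which overlapped, and Gk at 3.25. Overlap here refers to the ranges over libraries. Inside every ND library Dgat2 stood above Agpat2, Dgat1 above Gpam and Lpin1 above Mogat1, while the order of Agpat2, Pck1 and Gpd1 changed between libraries. On HFD Dgat2 led at 583 FPKM with no overlap with the next, followed by Pck1 at 274 and Gpd1 at 218, which overlapped, and by Agpat2 at 129. The ranges of Aqp7 at 66.6, Dgat1 at 47.5, Lpin1 at 24.4 and Gpam at 19.4 FPKM overlapped as neighbours, but inside every HFD library these 4 genes kept this order. Mogat1 at 3.38 and Gk at 2.23 FPKM were last. By mean, Agpat2 stood beside Pck1 and Gpd1 on ND and under both on HFD, where its libraries (113 to 150 FPKM) lay below those of Gpd1 but within the range of Pck1 (69.2 to 477 FPKM), and Gpam stood above Aqp7 on ND and under it on HFD.

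The share of each gene within its enzyme family was compared next, since a ratio inside a library does not depend on the scaling between libraries. All 23 ratios were tested by exact permutation (two-sided), where 3 against 3 libraries cannot go below p = 0.1, so none could pass. For 9 ratios the diets did not overlap (exact p = 0.1, adjusted p = 0.256). Of these 9, 2 lower and 2 higher ones were ratios to the adipocyte markers, given further below. The share of ratios without overlap among other genes was not taken. Among the levels of single genes, 40.9% of all genes tested did not overlap between the diets, so the count of 9 is not read as a trait of these families. Gpam per length was 1.77, 3.39 and 2.31 times Gpat4, an acyltransferase of the endoplasmic reticulum, on ND and 1.02, 1.35 and 0.865 times on HFD, a difference of -1.18 on the log2 scale. Against Gpat3, the acyltransferase abundant in fat, the diets overlapped, with Gpam at 1.44, 3.29 and 2.74 times on ND and 1.27, 1.31 and 2.22 times on HFD (log2 difference -0.61, exact p = 0.2, adjusted p = 0.383). Agpat2 was 12.9, 20.2 and 8.85 times Agpat1 on ND and 5.46, 6.22 and 4.17 times on HFD (log2 difference -1.34), and its ratio to Agpat3 also did not overlap (log2 difference -0.62). Agpat1 itself had a log2 fold change of 0.05, with an SE of 0.13. Gpd1 was 22.3, 18.1 and 18.7 times Gpd2, the mitochondrial enzyme of the glycerol phosphate shuttle, on ND and 38.7, 45.0 and 59.6 times on HFD (log2 difference 1.26), where the log2 fold change was -1.82 for Gpd2 and -0.55 for Gpd1 itself. Its ratio to Gpd1l overlapped, at 16.3, 25.8 and 12.7 on ND and 17.6, 18.3 and 18.0 on HFD (log2 difference 0.04, exact p = 0.9).

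The GPAT family summed to 130 to 151 FPKM on ND and to 34.4 to 68.9 FPKM on HFD, without overlap, and Gpam made up 44.2% to 62.5% of it on ND and 36.0% to 39.9% on HFD. The AGPAT family had 256 to 637 FPKM on ND and 182 to 212 on HFD, with Agpat2 at 74.5% to 87.0% and 62.4% to 70.7%. The DGAT family overlapped, at 514 to 1257 FPKM on ND and 534 to 764 on HFD, and Dgat2 was 84.7% to 92.0% and 91.9% to 93.7% of it. In the MGAT family Mogat1 held 88.7% to 97.7% on ND and 9.47% to 54.4% on HFD. Its relative Mogat2, best known from the intestine, had 3.35, 6.38 and 0.850 CPM on ND against 9.51, 8.37 and 14.9 CPM on HFD, without overlap, and a log2 fold change of 1.64 with an SE of 0.62 (edgeR adjusted p = 0.114, DESeq2 adjusted p = 0.0400). Lpin1 was 81.5% to 88.1% of the lipin FPKM on ND and 71.5% to 86.3% on HFD, and Pck1 was 93.8% to 99.0% of the Pck1 and Pck2 sum across both diets.

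**Figure D3:**
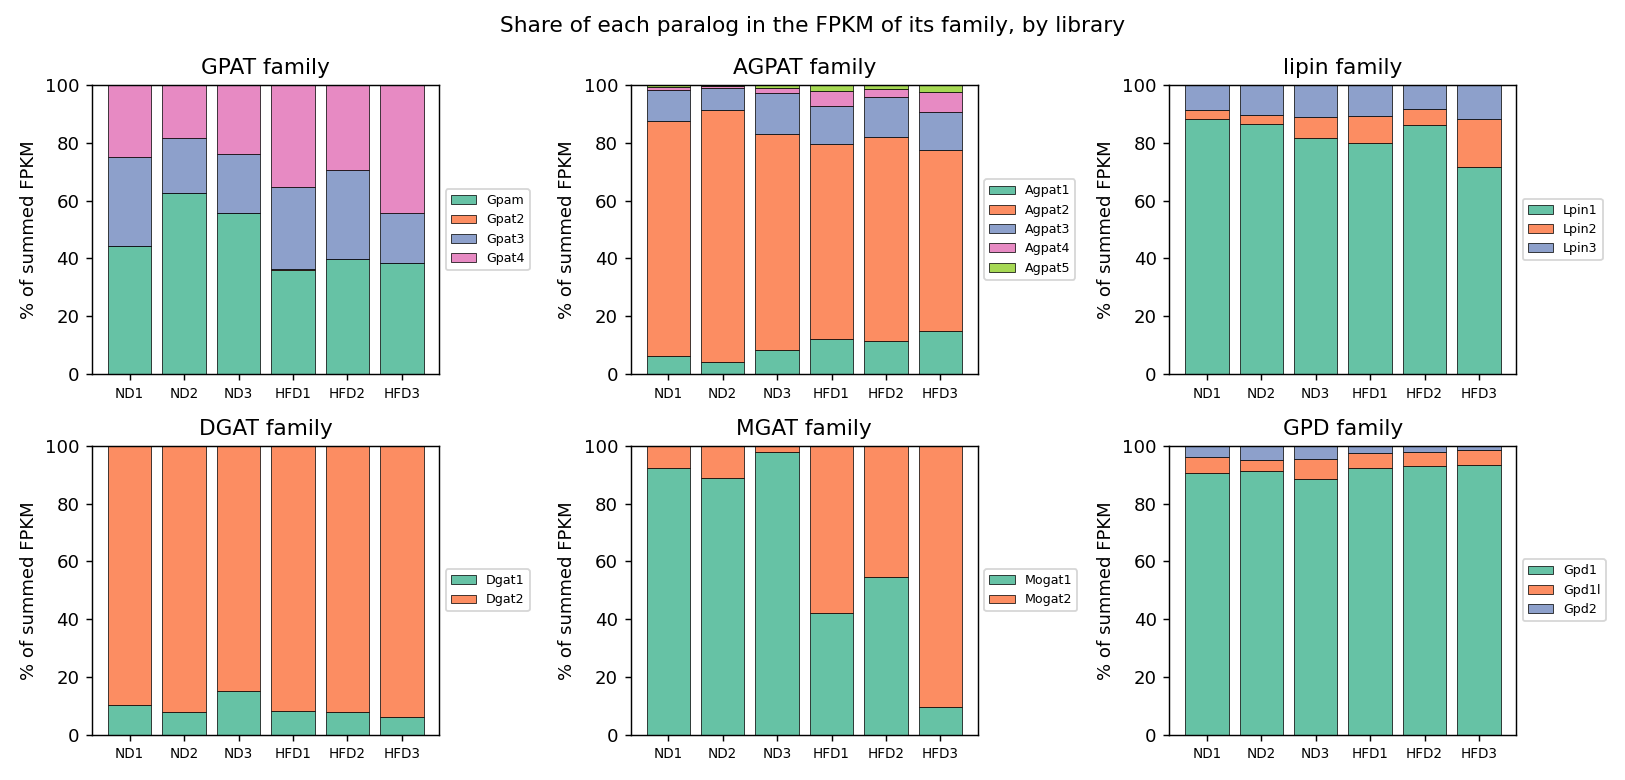
Stacked bars of the percent of summed FPKM that each paralog holds in 6 enzyme families, 1 bar per library. The Gpam and Agpat2 shares are smaller in every HFD bar than in every ND bar, Mogat1 holds at least 88.7% on ND and at most 54.4% on HFD, and the Dgat1 and Dgat2 shares overlap between the diets.

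Among 23 paralogs of the 10 genes, 16 were tested, 4 fell and 1 rose, against 6.04% and 9.85% of all genes tested. Their median log2 fold change was -0.39, against 0.01 over all genes tested and -0.52 over the adipocyte markers. The 4 that fell were Gpat4, Agpat3, Gpd1l and Gpd2, with log2 fold changes of -0.83, -0.68, -0.51 and -1.82 (edgeR adjusted p = 0.0180, 0.0325, 0.0365 and 0.0188). Gpd2 had 88.0, 169 and 66.9 CPM on ND against 33.4, 35.0 and 23.5 CPM on HFD. Agpat4 rose from 9.5, 10.3 and 12.4 CPM to 26.1, 16.2 and 34.7 CPM, a log2 fold change of 1.26 (edgeR adjusted p = 0.0268). Gpat3 had a log2 fold change of -1.26 with an SE of 0.43 and did not pass (edgeR adjusted p = 0.0859), but passed in DESeq2 (adjusted p = 0.0138).

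In the neighbouring steps, of 5 acyl-CoA synthetases, which activate the fatty acids, 4 were tested and 1 rose, Acsl5, from 70.0, 72.0 and 63.4 CPM to 104, 101 and 120 CPM (log2 fold change 0.66, edgeR adjusted p = 0.0150), while Acsl1, the main form of fat, had a log2 fold change of 0.14. Of 12 genes of the phospholipid branch, which shares phosphatidic acid and diacylglycerol with the pathway, 1 fell, Cept1 (log2 fold change -0.46, edgeR adjusted p = 0.0343). Of 5 partner genes, 4 were tested and 1 fell, Bscl2 (seipin, a lipid droplet assembly protein), from 271, 340 and 263 CPM to 160, 218 and 153 CPM (log2 fold change -0.72, edgeR adjusted p = 0.0425). For all genes tested, the shares were 6.04% lower and 9.85% higher.

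Of 12 transcription factors and coactivators tied to these genes, 4 fell and 8 did not pass, while 6.04% of all genes tested fell. Their median log2 fold change was -0.75, against 0.01 over all genes tested and -0.52 over the adipocyte markers. Srebf1, a driver of lipogenic genes that include Gpam, had 435, 541 and 439 CPM on ND against 212, 288 and 150 CPM on HFD (log2 fold change -1.12, edgeR adjusted p = 0.0272). Mlxipl (ChREBP), the glucose-responsive factor, had 70.2, 111 and 58.4 CPM on ND against 29.7, 35.1 and 15.6 CPM on HFD (log2 fold change -1.58, edgeR adjusted p = 0.0263). Ppargc1a and Nr2f2 fell by 2.17 and 0.98 on the log2 scale (edgeR adjusted p = 0.0114 and 0.0409). Pparg and Cebpa, the adipocyte master regulators, had log2 fold changes of -0.63 and -0.86 and did not pass (edgeR adjusted p = 0.149 and 0.0652), while Cebpa passed in DESeq2 (adjusted p = 0.00597) and its diets did not overlap. Over these 5 lists of related genes, 10 genes fell and 2 rose, and leaving out 1 library gave 1, 2 and 4 lower for the first, the second and the third ND library and 0, 16 and 5 lower for the HFD libraries, with 0, 0, 2, 0, 5 and 2 higher. The shares of all genes moved with them, at 0.956%, 1.32%, 2.46%, 0.58%, 9.65% and 4.58% lower in the same order. The shares higher were 2.08%, 2.31%, 3.78%, 2.35%, 14.5% and 8.33%. Without the third ND library Gpd1l, Gpd2, Mlxipl and Ppargc1a fell, and the calls of Gpat4, Agpat3, Cept1, Bscl2, Srebf1 and Nr2f2 were lost, with edgeR adjusted p-values of 0.0560, 0.0570, 0.0658, 0.0747, 0.0666 and 0.107, as were those of Agpat4 and Acsl5 (0.0625 and 0.0590).

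Finally, the genes were set beside the adipocyte markers, whose geometric mean was 1904, 2124 and 1714 CPM on ND against 1046, 1568 and 566 CPM on HFD. Relative to these markers in the same library, the mean log2 ratio of Gpam was lower on HFD by a difference of -1.05 and that of Mogat1 by -2.15, and the diets did not overlap for either. The ratios of Lpin1 and Aqp7 were higher by 0.56 and 1.29, also without overlap, but the ratio was higher without overlap for 54.2% of all genes tested and lower for 1.85%, and the difference of Lpin1 was smaller than the median log2 fold change of 1.09 that all genes had under this scaling. The other 6 overlapped, with differences of 0.06 for Dgat1, -0.33 for Agpat2, 0.67 for Dgat2, 0.31 for Pck1, 0.50 for Gpd1 and 0.83 for Gk. When edgeR was run with each library scaled to these markers, Mogat1 fell (log2 fold change -2.03, adjusted p = 0.00183), Aqp7 rose (1.29, adjusted p = 0.0409), and Gpam was at -1.04 (adjusted p = 0.0855), Agpat2 at -0.34 and Dgat1 at 0.08. With that scaling 0.749% of all genes tested fell and 35.9% rose. The calls of Gpam and Aqp7 changed when Cfd, the marker with the steepest fall, was left out of the scaling (a choice made after seeing the data): Gpam fell (log2 fold change -1.28, adjusted p = 0.0355) and Aqp7 did not pass (1.06, adjusted p = 0.0680), while Mogat1 again fell (-2.23, adjusted p = 0.00213), with 0.8% of all genes lower and 18.0% higher.

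Within HFD the libraries kept 1 order for most of these genes. The level ran from the second to the first to the third library in 8 of the 10 genes and in 14 of the 15 adipocyte markers, and the macrophage markers ran the opposite way in 15 of 15. The share of all genes with either order was not counted, so the order cannot be called particular to these genes. The macrophage geometric mean was 277, 193 and 447 CPM in the first, the second and the third HFD library, against 81.2 to 87.2 CPM on ND. Adipoq (adiponectin), an adipocyte marker, had 2068, 3833 and 1032 CPM on HFD and did not pass the test (log2 fold change -0.52, edgeR adjusted p = 0.457), and Adgre1 (F4/80), a macrophage marker, had 319, 211 and 506 CPM (log2 fold change 2.91, edgeR adjusted p = 0.00583). The part of the cell mixture in the diet differences was not tested. Of the other lists, none of the 6 endothelial and 5 mesothelial markers passed edgeR's test (1 and 0 did at an unadjusted p-value under 0.05, and 1 and 0 in DESeq2). By edgeR's test 1 of 7 liver markers (Serpina1a) and 1 of 6 skeletal muscle markers (Acta1) fell. The brown adipocyte markers did not move 1 way. Of the 6, 4 were tested, with log2 fold changes from -1.21 to 4.82. In edgeR 1 rose (Otop1) and 0 fell, while DESeq2 called 1 higher and 1 lower. Ucp1 had 0 counts in each ND library and 3, 9 and 1 on HFD.

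**Figure D4:**
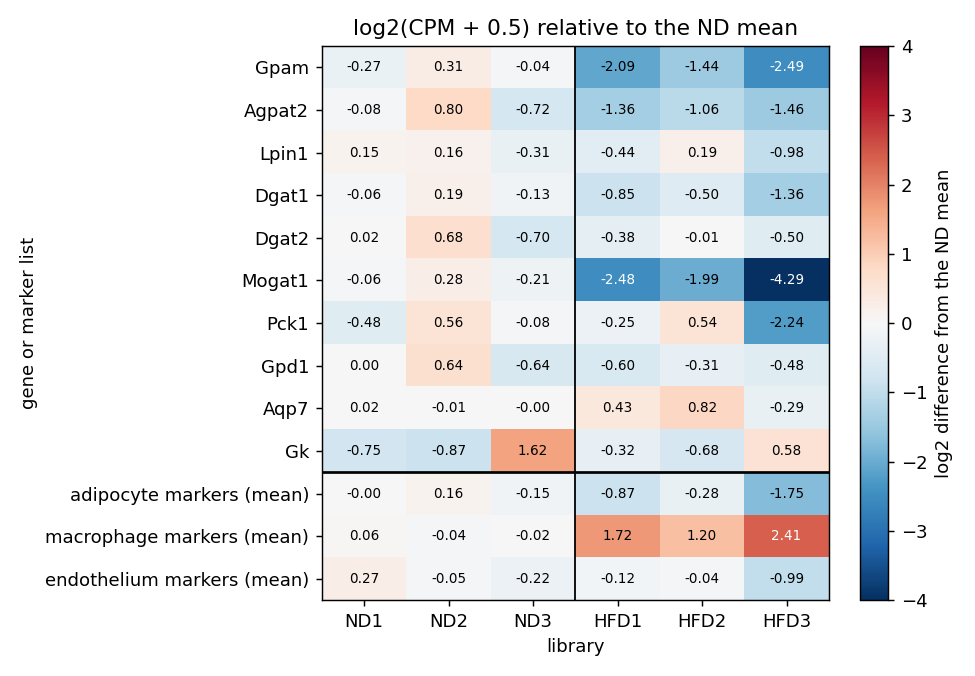
Heat map of log2(CPM + 0.5) of each of the 10 genes, and of the mean of the adipocyte, macrophage and endothelium markers, in each library, as the difference from the ND mean of that row. Within HFD, 8 of the 10 genes and the adipocyte markers run highest in the second library and lowest in the third, and the macrophage markers run the other way.

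By profile over the 6 libraries, the non-member protein-coding gene nearest to each of the 10 was named from 12514 genes, by the root-mean-square difference of centred log2 CPM. Dgat1 was nearest to Hint3 at 0.041, Gpd1 to Sc5d at 0.051, Dgat2 and Aqp7 to Dhx32 and Sptbn1 at 0.062 each, Agpat2 to Enpep at 0.064 and Lpin1 to Klhl13 at 0.070. The distances were larger for Gk with Erbb3 at 0.128, Gpam with Casq2 at 0.157, Mogat1 with Fn3k at 0.165 and Pck1 with Scd1, the stearoyl-CoA desaturase, at 0.228. Among the 10 genes themselves the closest pair was Dgat2 and Gpd1, at 0.130. These are descriptions of 6 libraries.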

How the data were processed

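RNA-Seq of epididymal fat was analysed in 3 ND and 3 HFD libraries, grouped by the labels. The authors deposited raw counts per gene and FPKM values for the same genes. The paper names TopHat and Cufflinks with GRCm38, while the submitters' processing notes name CASAVA 1.8, fastp, HISAT2 2.0.5, featureCounts 1.5.0-p3, DESeq2 1.20.0 and the human builds GRCh38 and hg38; use of strand in counting is not given in the sources used here. Of 54532 identifiers, 54495 were found in GENCODE M21 (GRCm38), the source of gene names and positions.

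Counts were tested with the quasi-likelihood test of edgeR 4.0.16 under R 4.3.3 (TMM, filterByExpr, robust glmQLFit, diet alone in the model) and Benjamini-Hochberg adjustment over 15751 genes, at a threshold of 0.05. Ratios used FPKM and exact permutation tests. The 10 genes, the lists and the tests were chosen with earlier results of these data known; TTACGTCA was added after the windows were read. Named genes were the 10 genes, the list genes that passed or entered a ratio, and the nearest gene of each; Gpat3, Acsl1, Pparg, Cebpa and the single markers not covered by this were named for their role. Adipocyte marker scaling set each library by the geometric mean of the counts of 15 markers. Other alternatives were voom in limma 3.58.1, the Wald test of DESeq2 1.42.0 and its size factors, library size only, other filters, robust=FALSE, log2(FPKM + 1) and log2(FPKM + 0.1) in limma, a replicate block and each library left out. Data were also simulated from the means, dispersions and library sizes of this comparison, with 200 genes changed (15491 genes tested). There edgeR recovered 47 of 111 genes changed by 1 and 74 of 88 changed by 2 on the log2 scale, with 11 false calls. The real comparison called 2504 genes, far more than were changed in the simulation, so these rates may not carry over to it. Protein sequences were not used here.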

Additional observations from a re-analysis of the deposited data

How the results depend on the processing

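Of 20 alternatives, Gpam was called in 18, Mogat1 in 14, Dgat1 in 13, Agpat2 in 10 and Aqp7 in 2, and the other 5 genes in 0. The 4 lower genes became 1 under adipocyte marker scaling, 2 with Cfd left out of the markers (added after seeing the data), 2 without a filter on counts and 1 in FPKM without a filter, and 0 to 4 with 1 library left out. The share of all genes called lower moved too, from 6.04% in the test reported. It was 0.749%, 0.8%, 2.54% and 0.893% in these settings in turn, and 0.58% to 9.65% with 1 library left out. The higher genes, 0 in the test reported, were 1 under adipocyte marker scaling and 0 to 1 with 1 library left out. Of all genes, 9.85% were higher in the test reported, 35.9% under that scaling and 2.08% to 14.5% with 1 library left out. In the 5 other lists, the 10 lower genes became 0 under adipocyte marker scaling, 1 with Cfd left out, 6 without a filter, 2 in FPKM without a filter and 0 to 16 with 1 library left out. The 2 higher genes became 5 in DESeq2, 13 under adipocyte marker scaling, 5 with Cfd left out, 1 in FPKM without a filter, 4 without the third library of both diets and 0 to 5 with 1 library left out. The share of all genes called higher in the first 5 of these settings was 10.7%, 35.9%, 18.0%, 1.38% and 7.63%. The Aqp7 call was lost and the Gpam call made again with Cfd left out. The cause was not tested.

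Adipocyte marker scaling, which shifted the median of all genes by 1.08 on the log2 scale (0.83 with Cfd left out, and at most 0.04 in size for the other scalings), reversed Lpin1 to 0.56, Dgat1 to 0.081, Dgat2 to 0.67, Pck1 to 0.37, Gpd1 to 0.56 and Gk to 0.67. With Cfd left out Lpin1 was 0.33, Dgat2 0.42, Pck1 0.18, Gpd1 0.30 and Gk 0.39. With 1 library left out, log2 fold changes ranged from -0.70 to 0.019 for Dgat2, -0.99 to 0.12 for Pck1 and -1.01 to 0.76 for Gk, and without the third library of both diets Pck1 was 0.041 and Gk 0.31. Of the log2 ratios, Pck1/Pck2 ranged from -1.21 to 0.11, Gpd1/Gpd1l from -0.19 to 0.32, Gk/Aqp7 from -1.13 to 0.37, Pck1/Gk from -1.39 to 0.65, Acsl1/Acsl4 from -0.46 to 0.13 and Dgat1 against the adipocyte markers from -0.10 to 0.20.

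Libraries with the same replicate number did not deviate together over the 15751 genes tested (correlations -0.0858, -0.0556 and -0.00532). The labels do not say how the numbers were given. Correlations over all genes cannot show whether a pairing is shared by some genes only. With the replicate block 4 of the 10 genes were lower and 0 higher, against 4.46% and 7.51% of all genes tested. In all 1886 genes were called with the block, of which 1693 were among the 2504. The number of libraries limits these results, and limits from depth were not compared between the genes.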

Other observations

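The ND libraries spread widely in several of the synthesis genes. The highest ND library was 2.86-fold over the lowest for Agpat2, 2.61-fold for Dgat2, 2.44-fold for Gpd1 and 2.05-fold for Pck1. The median over the 6230 genes with an average log2 CPM above 5 was 1.18-fold. The geometric mean of the adipocyte markers spread by 1.24-fold. The cut at 5 lies below the averages of these 4 genes, the lowest being 8.97 for Agpat2, so the set was not matched to them in abundance. Of those 6230 genes, 99.3% spread less than Agpat2, 99.1% less than Dgat2 and 98.9% less than Gpd1. On HFD the spread was not narrower in all 4, since they spread by 1.32-, 1.40- and 1.22-fold for Agpat2, Dgat2 and Gpd1, and by 6.87-fold for Pck1, against a median of 1.29-fold and 2.77-fold for the adipocyte markers. Aqp7 spread by 1.02-fold on ND, less than all but 1.16% of those genes, and by 2.16-fold on HFD. The second ND library was the highest ND library in 8 of the 10 genes, and the share of all genes for which this held was not counted. With 3 libraries a diet, the difference in spread was not tested.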
